A study of Mus musculus with 2 samples.

Results

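Dividing cells make DNA precursors with a small set of enzymes, and the transcripts of 8 of their genes were followed here: Rrm1, Rrm2, Rrm2b, Tyms, Dut, Tk1, Dck and Samhd1. They were chosen by name for their place in deoxynucleotide supply, not by their values, and all 8 were among the 14366 genes measured. The data were 2 single-cell RNA libraries of mouse hematopoietic stem cells (HSC), 1 for each group. Bone marrow of 8 wildtype C57/B6 mice, 6 to 8 weeks old, was pooled, and HSC were sorted by flow cytometry as Lin-, Sca-1+, c-Kit+, CD150+ and CD48-. Both groups grew in Myelocult M5300 with stem cell factor at 100 ng/ml, thrombopoietin at 50 ng/ml and Primocin, an antimicrobial. For 48 h the treated culture also held 10 µM DFO (deferoxamine), which binds iron, and the vehicle culture held sterile water. That both libraries came from the same sorted pool is not stated for each library.

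Ribonucleotide reductase turns ribonucleotides into deoxyribonucleotides. Its large subunit, from Rrm1, pairs with a small subunit, from Rrm2 in dividing cells or from the p53-inducible Rrm2b, and the small subunit holds an iron centre with a tyrosyl radical. Tyms makes thymidylate, Dut breaks dUTP down to the substrate of Tyms, Tk1 and Dck phosphorylate salvaged nucleosides, and Samhd1 breaks deoxynucleotides down. The comparison asks how these transcripts stand in cells of different cycle state, and in cells grown with an iron chelator against vehicle, since the small subunit needs iron. Transcript levels do not give the amount or activity of the enzymes.

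The vehicle library held 8708 cells with 260938938 molecules, counted as unique molecular identifiers, and the DFO library 9852 cells with 284326017. Median cells had 27805.5 and 27114 molecules, and 24 cell barcodes occurred in both libraries. With 1 library per group there is no replicate and no test. Summed molecules carry exact 95% Poisson intervals and shares carry Clopper-Pearson ones, which cover counting error only. All 14 HSC markers examined were found, among them Procr (5.17 CPM with vehicle, 5.75 CPM with DFO), Hlf (62.9 and 71.5 CPM), Ly6a (83.9 and 111 CPM), Kit (35.3 and 40.7 CPM), Slamf1 (14.4 and 11.8 CPM) and Vwf (6.84 and 4.17 CPM), where CPM is molecules of a gene scaled to a library total of 1e+06. Of the 12 at a mean of 5 CPM or more, 6 were higher and 6 lower with DFO, with a median log2 difference of 0.0013. The summed level of 11 megakaryocyte markers was 1806 CPM with vehicle and 818 CPM with DFO, and all 9 of them at a mean of 5 CPM or more were lower in the DFO library. So were 4 of 5 erythroid markers (median -0.30) and 4 of 4 neutrophil-monocyte markers (median -0.22). The median mitochondrial share of a cell's molecules was 3.88% with vehicle and 4.40% with DFO. The part of these shifts in the differences below was not tested, apart from the values given for marker-rich cells.

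In mm10 with the GENCODE M21 annotation, Rrm1 lies at chr7:102441695-102469771 on the plus strand, Rrm2 at chr12:24708241-24714146 on the plus strand and Rrm2b at chr15:37923952-37961318 on the minus strand. Tyms lies at chr5:30058202-30073617 (minus), Dut at chr2:125247190-125258608 (plus), Tk1 at chr11:117815526-117826092 (minus), Dck at chr5:88764996-88783281 (plus) and Samhd1 at chr2:157097533-157135265 (minus). Transcripts of Rrm2 match those of Gm11485, Gm48455 and Gm6593 over at least 200 bases at 90% identity or more, and so do those of Rrm1 with Olfr1336, Rrm2b with Gm8616 and Tyms with Tyms-ps. The sources used here do not give how reads shared with such copies were counted, so the levels of Rrm1, Rrm2, Rrm2b and Tyms carry that uncertainty. Gm49085, antisense to Rrm2b and sharing 379 bases with it, was at 2.22 CPM with vehicle and 2.11 CPM with DFO. The opposite-strand neighbour of Tk1, Afmid, was at 0.272 and 0.281 CPM.

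Across all cells, 7 of the 8 genes were higher in the DFO library and Samhd1 was lower, and every difference was small. Each gene was compared by log2((DFO CPM + 1)/(vehicle CPM + 1)), for the 8886 genes whose mean reached 5 CPM. No member reached an absolute difference of 0.25, which 3.97% of all tested genes did (1.4% higher and 2.58% lower). A difference above 0 was found in 7 of 8 members and in 57.9% of all tested genes. The members' median was 0.16, against 0.019 for all tested genes, whose differences had an SD of 0.13.

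**Figure D1:**
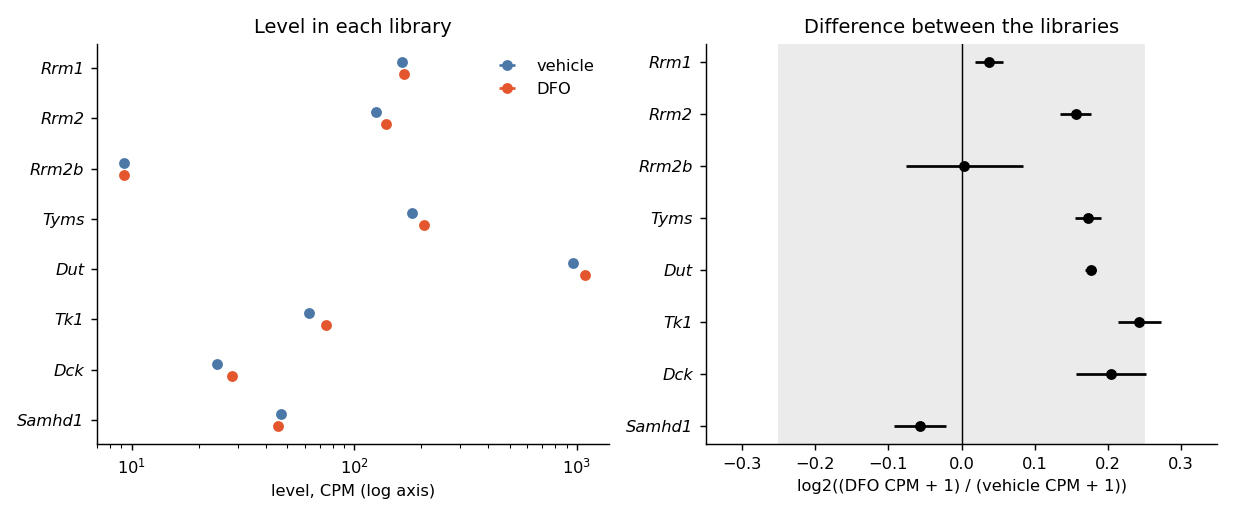
Left, levels of the 8 genes in CPM on a log axis, 1 point per library (vehicle and DFO), with exact 95% Poisson intervals that are smaller than the points. Right, the log2 difference with its counting half-width, the band from -0.25 to 0.25 shaded. Dut is the highest at 964 and 1090.0 CPM, Rrm2b the lowest at 9.25 and 9.28 CPM, and all 8 differences lie within the band.

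Rrm1, the large subunit, was at 164 CPM (162 to 165) with vehicle and 168 CPM (167 to 170) with DFO, from 42742 and 47812 molecules. The log2 difference was 0.038 with a counting half-width of 0.019, and 57.8% of tested genes had a lower one. Rrm2, the small subunit of dividing cells, was at 125 CPM (124 to 126) with vehicle and 140 CPM (138 to 141) with DFO, from 32646 and 39678 molecules. Its difference was 0.16 with a half-width of 0.021, above that of 92.7% of tested genes. Counting intervals of the libraries lay apart for both subunits, and the difference was larger for Rrm2.

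Rrm2b, the alternative small subunit, was at 9.25 CPM (8.89 to 9.63) with vehicle and 9.28 CPM (8.93 to 9.64) with DFO. Its ratio of DFO to vehicle was 1.00 (0.949 to 1.06). Its intervals overlapped, so a difference was not detectable at this depth. The other 7 members had intervals apart, as did 54.2% of all tested genes. Its difference took both signs over the alternatives tried, from -0.014 to 0.030.

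The genes of thymidylate supply were higher in the DFO library. Tyms, which methylates dUMP, was at 182 CPM (180.1 to 183) with vehicle and 205 CPM (203 to 207) with DFO, a difference of 0.17 with a half-width of 0.017. Dut, the dUTPase, was at 964 CPM (960.4 to 968) with vehicle and 1090.0 CPM (1086 to 1094) with DFO, a difference of 0.18 with a half-width of 0.0076. Dut was the most abundant of the 8 in counted molecules and so the most precisely measured.

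The salvage kinases had the highest differences of the 8. Tk1, the cytosolic thymidine kinase, was at 62.7 CPM (61.7 to 63.7) with vehicle and 74.4 CPM (73.4 to 75.4) with DFO, a difference of 0.24 with a half-width of 0.029 that was above that of 98.5% of tested genes. Dck, deoxycytidine kinase, was at 24.3 CPM (23.7 to 24.9) with vehicle and 28.1 CPM (27.5 to 28.8) with DFO, a difference of 0.20 with a half-width of 0.048. Samhd1, which hydrolyses deoxynucleotides, was at 47.1 CPM (46.3 to 47.9) with vehicle and 45.2 CPM (44.5 to 46.0) with DFO, a difference of -0.057. The Samhd1 intervals lay apart, and it was the only member below 0 when all cells were summed.

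The stretches before the start sites of Rrm1 and Rrm2 are shown because these subunit genes followed the S phase genes to unequal degrees, as described next. Each is the 250 bases before the start in RefSeq (GRCm38.p6), with CCAAT, the letters of the CCAAT box, in capitals. Rrm1 covers chr7:102441445-102441694 and Rrm2 covers chr12:24708004-24708253, both on the plus strand.
Rrm1: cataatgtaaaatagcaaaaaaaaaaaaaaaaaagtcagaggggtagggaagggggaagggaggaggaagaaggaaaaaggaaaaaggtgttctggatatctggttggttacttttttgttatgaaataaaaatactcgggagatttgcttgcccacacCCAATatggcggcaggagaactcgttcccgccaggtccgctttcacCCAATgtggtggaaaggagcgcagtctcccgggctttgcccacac
Rrm2: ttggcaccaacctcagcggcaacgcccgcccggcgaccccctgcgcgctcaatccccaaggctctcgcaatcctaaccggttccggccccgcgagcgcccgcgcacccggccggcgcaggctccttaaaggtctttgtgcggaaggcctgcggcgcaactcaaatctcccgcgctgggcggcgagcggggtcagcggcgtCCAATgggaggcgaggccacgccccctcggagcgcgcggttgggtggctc
Searched on both strands of windows from 250 bases before to 50 after the start, CCAAT occurred 2 times for Rrm1, beginning 91 and 45 bases before the start, and 1 time for Rrm2, beginning 50 bases before it. RefSeq held such a window for 7 of the 8 genes, and the other 5 had no CCAAT. Of all 32851 windows of this length, 37.4% held CCAAT. None of the 7 windows held any of 4 words of the E2F type (TTTCCCGC, TTTGGCGC, TTTGCCGC and TTTCGCGC), which 2.26% of all windows did. Only exact words were sought, so close spellings such as TTCCCGCC, present in the Rrm1 stretch, were not counted. The Dut window (chr2:125247265-125247564) lies wholly inside the GENCODE span of Dut, and most of the Samhd1 window (chr2:157135047-157135346) inside that of Samhd1. For these 2 genes the search says little of the stretch before the GENCODE start. Dck had 1 match to TTTGAA, the letters of the CHR element, beginning 245 bases before its start, a word held by 17.9% of all windows. No 2 of these matches overlap, and matching letters describe the sequence, not binding.

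Cycle state was scored from genes other than the 8. Each cell with at least 10000 molecules was thinned to 10000, which kept 8357 vehicle and 9419 DFO cells and left out 4.03% and 4.4%. The molecules of 40 S phase genes and of 54 G2/M genes were then summed in each cell, and cells of both libraries were placed together in 10 bins of rising sum. From the lowest to the highest S list bin, 6 members were higher in both libraries, while Rrm2b and Samhd1 were lower in both. Free RNA in the droplets adds to such levels and scores, and its part was not tested. Bins with intervals apart are counted below for the members only, with no share of all genes beside them. Intervals narrow with more molecules, so these counts also depend on a gene's abundance.

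Rrm2 had the steepest course of the 8. In vehicle it was at 46.4 CPM (42.6 to 50.5) in bin 1, 113 CPM (105 to 120.2) in bin 5 and 225 CPM (214 to 236) in bin 10. In DFO the same bins were at 60.9 CPM (55.8 to 66.3), 116 CPM (109 to 123) and 229.8 CPM (221 to 239). The top bin exceeded the lowest 4.84-fold in vehicle and 3.78-fold in DFO. Rrm2 was higher in the DFO library in 9 of 10 bins, with intervals apart in 2. The widest log2 difference between libraries, 0.38, was in bin 1, and in bin 7 the libraries were level, at 153 CPM each.

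Rrm1 followed the S list less. It was at 113 CPM (107 to 119) in bin 1 and 187 CPM (177 to 198) in bin 10 in vehicle, and at 127 CPM (120.0 to 135) and 182 CPM (174 to 191) with DFO. The folds were 1.65 in vehicle and 1.43 in DFO. DFO was higher in 6 bins, with intervals apart in 1 and overlapping in the other 9. Rrm2b went the other way, from 11.3 CPM (9.42 to 13.3) in bin 1 to 8.30 CPM (6.32 to 10.7) in bin 10 in vehicle, and from 11.0 CPM (8.88 to 13.4) to 8.05 CPM (6.40 to 9.99) with DFO. These intervals overlap, and none of the 10 bins separated the libraries for Rrm2b.

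The thymidylate genes had flatter courses than Rrm2. Tyms was 2.22-fold higher in bin 10 than in bin 1 in vehicle (110.0 and 245 CPM) and 1.85-fold in DFO (135 and 251 CPM). Dut was 2.08-fold higher in vehicle (580.0 and 1204 CPM) and 2.02-fold in DFO (655 and 1327 CPM). Both genes were higher in the DFO library in all 10 bins, with intervals apart in 5 for Tyms and in 10 for Dut.

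Tk1 was 3.07-fold higher in bin 10 than in bin 1 in vehicle (29.9 and 92.0 CPM) and 2.48-fold in DFO (39.6 and 98.2 CPM). Dck was 2.66-fold higher in vehicle (14.7 and 39.1 CPM) and 2.84-fold in DFO (16.1 and 45.6 CPM). Each salvage kinase was higher in DFO in all 10 bins, with intervals apart in 4 for Tk1 and in 0 for Dck. Samhd1 was at 60.0 CPM (55.6 to 64.6) in bin 1 and 48.2 CPM (43.3 to 53.6) in bin 10 in vehicle, and at 54.6 CPM (49.8 to 59.8) and 50.7 CPM (46.5 to 55.3) with DFO. Its libraries overlapped in all bins.

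**Figure D2:**
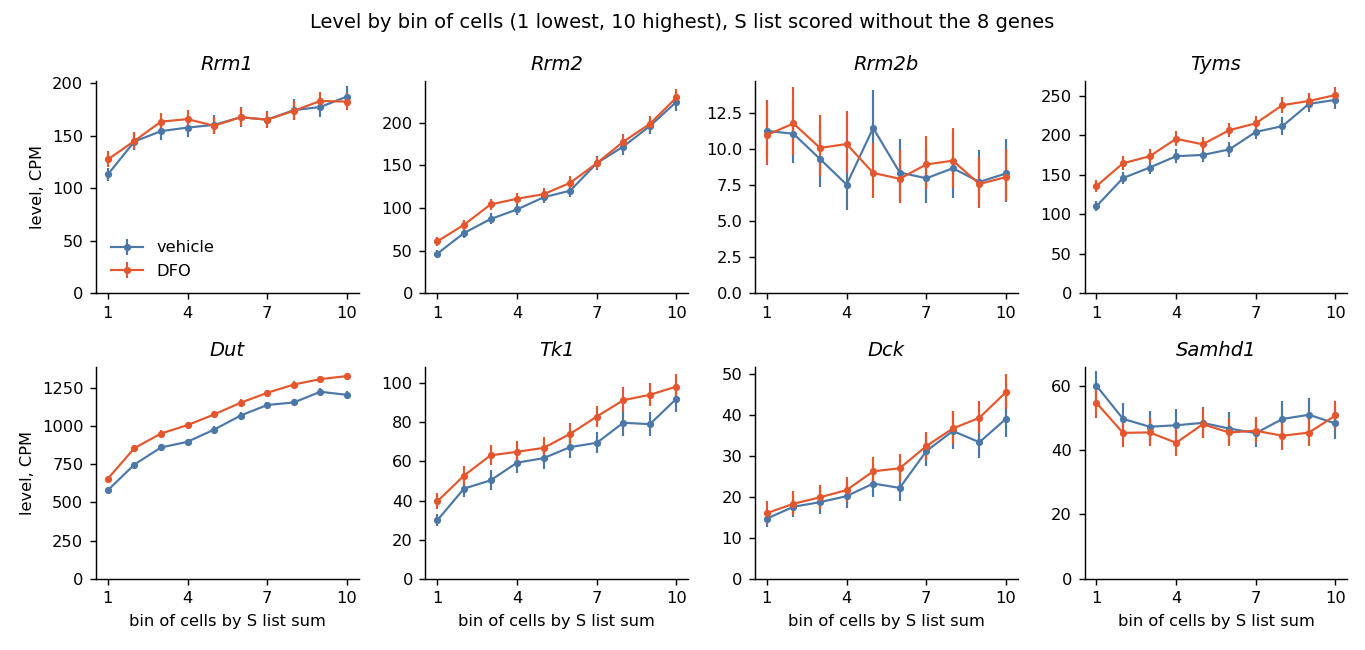
Level of each gene in CPM (vertical axes, from 0) over 10 bins of cells by rising sum of the S phase list (horizontal axes), for vehicle and DFO, with exact 95% Poisson intervals. Rrm2 goes from 46.4 to 225 CPM with vehicle and from 60.9 to 229.8 CPM with DFO, the Dut curves stay apart in all 10 bins, and Rrm2b and Samhd1 end below their first bin in both libraries.

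Along the G2/M list the genes had another shape. Rrm2 was at 58.4 CPM in bin 1, 184 CPM (175 to 194) in bin 3 and 77.4 CPM (71.5 to 83.6) in bin 10 in vehicle. In DFO the same bins were at 66.8 CPM, 191 CPM (182 to 199.8) and 85.6 CPM (79.8 to 91.8). Dut also peaked in bin 3, at 1201 CPM with vehicle and 1321 CPM with DFO, and was lowest in bin 10, at 652 and 779 CPM. Rrm1 did not come down in this way: after 94.4 and 97.7 CPM in bin 1 it was between 149 and 176 CPM in bins 2 to 10 of both libraries. Rrm2 was thus lower relative to Rrm1 in bin 10 than in bin 3 of both libraries.

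DFO was higher than vehicle in all 10 G2/M bins for Rrm2, Tyms, Dut and Tk1. Intervals lay apart in 3 bins for Rrm2, 5 for Tyms, 10 for Dut and 7 for Tk1. Dck was higher in 9 bins, with intervals apart in 2, and Rrm1 in 8, apart in 1. Rrm2b was higher in 5 bins and Samhd1 in 3, with 0 bins apart for either. As for the S list, the share of all genes apart in each bin was not counted.

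**Figure D3:**
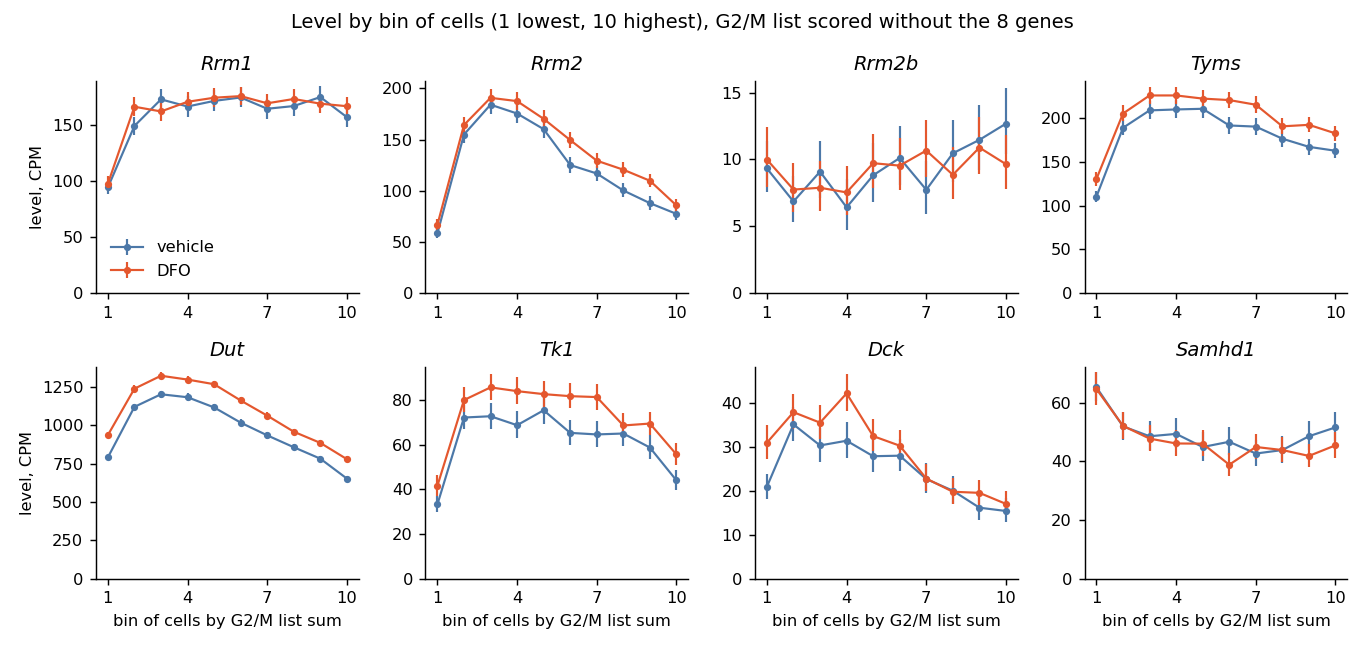
Level of each gene in CPM (vertical axes, from 0) over 10 bins of cells by rising sum of the G2/M list (horizontal axes), for vehicle and DFO, with exact 95% Poisson intervals. Rrm2 peaks in bin 3 (184 CPM with vehicle, 191 CPM with DFO) and is at 77.4 and 85.6 CPM in bin 10, while Rrm1 stays at 149 CPM or more from bin 2 on.

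For a comparison of cycle states, each list sum was also split at its pooled median, which gave 4 classes of cells. These classes are ranges of a score, not cell types, and 26.1% of vehicle and 29.1% of DFO cells lay within 10% of a cut. Cells low in both lists made up 15.8% (15.0% to 16.6%) of the vehicle library and 10.9% (10.2% to 11.5%) of the DFO library. Cells high in the S list alone were 35.8% and 37.8%, cells high in both 10.3% and 14.5%, and cells high in the G2/M list alone 38.1% and 36.9%. Before thinning, the median cell of these classes had between 19702.5 molecules (low in both, DFO) and 34645 molecules (G2/M list high, vehicle). The low class was the shallowest and the smaller share of the DFO library, and values within classes follow for that reason. The classes do not match the libraries fully. In low cells the median S list sum was 31 in vehicle and 32 in DFO, and the median G2/M list sum 45 and 52. In S list cells the median G2/M list sum was 56 and 60, while cells high in both had equal medians. The part of these unequal sums in the differences within classes was not tested.

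Rrm2 and Tk1 were the members with at least a doubling, a log2 difference of 1, in cells high in the S list over cells low in both. These 2 of 8 compare with 0.707% of 8908 genes in the vehicle library and 0.517% of 8905 in the DFO library. These shares, and the ranks below, include the genes of the 2 lists, whose own sums define the classes. Differences above 0 were found for 6 of 8 members in each library, against 48.7% and 49.2% of all genes. No member was at -1 or below, where 0.269% and 0.146% of all genes lay. Rrm2 was at 59.2 CPM in low cells and 178 CPM in S list cells in vehicle, and at 68.8 and 185 CPM with DFO. The log2 difference of 1.57 in vehicle placed Rrm2 at rank 7 from the highest, and 1.41 in DFO at rank 8. Tk1 was at 35.0 and 75.2 CPM in vehicle (1.08, rank 49) and at 38.7 and 86.5 CPM with DFO (1.14, rank 30). The size depended on how the cells were divided: over the alternatives the log2 difference of Rrm2 ran from 1.33 to 2.91 in vehicle and from 1.10 to 2.80 in DFO, and that of Tk1 from 0.92 to 2.07 and from 0.79 to 2.03. How many members passed a doubling depended on it too, from 1 to 5 in vehicle and from 1 to 4 in DFO. The share of all genes past a doubling was counted only for the division at the median, so the other counts have no background.

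Below that mark came Tyms, at 0.97 in vehicle and 0.79 in DFO on the log2 scale, and Dck at 0.74 and 0.60. Rrm1 was at 0.67 and 0.60 and Dut at 0.57 and 0.43. Samhd1 was at -0.29 and -0.26, from 60.4 CPM in low cells to 49.4 CPM in S list cells in vehicle and from 58.4 to 48.7 CPM with DFO. Rrm2b was at -0.29 and -0.44, with 9.46 and 7.56 CPM with vehicle and 11.0 and 7.84 CPM with DFO. Its sign was not stable: with phase calls in place of the classes it was 0.026 in vehicle, and with cells thinned to 5000 molecules 0.017 in DFO.

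The balance of the 2 small subunits is given here in counted molecules. Both genes have near copies, and how shared reads were counted is not given. The ratios and shares carry that uncertainty, which their intervals do not cover. In cells low in both lists there were 6.26 Rrm2 molecules per Rrm2b molecule in vehicle and 6.28 in DFO. In S list cells there were 23.5 in each library. In G2/M list cells the ratios were 8.34 in vehicle and 10.2 in DFO, and in cells high in both 14.7 and 16.8. Rrm2b thus made up 13.8% of small subunit molecules in low cells of vehicle (11.6% to 16.2%) and 4.08% in S list cells (3.57% to 4.63%). The corresponding DFO shares were 13.7% (11.5% to 16.3%) and 4.07% (3.62% to 4.57%). Over all thinned cells Rrm2b was 7.06% of these molecules in vehicle (6.59% to 7.56%) and 6.26% in DFO (5.86% to 6.67%). The intervals of the libraries overlapped in all 4 classes and over all thinned cells.

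Rrm2 per Rrm1 molecule moved with the class as well. It was 0.567 in low cells, 1.07 in S list cells, 0.760 in cells high in both and 0.553 in G2/M list cells of the vehicle library. In DFO the same classes were at 0.618, 1.09, 0.861 and 0.625. Each class was higher in DFO, and S list cells had the highest ratio in both libraries. No counting interval was computed for these ratios, so whether the libraries differ within a class was not tested.

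Between the libraries within a class, 3 of 8 members passed an absolute log2 difference of 0.25 in cells low in both, where 14.9% of genes did. The members were Dck (0.37), Dut (0.27) and Tyms (0.26). Tk1 (0.25) passed in G2/M list cells, where 7.14% of genes did. Without likely doublets, 9.05% of these cells in vehicle and 8.70% in DFO, Tk1 was at 0.24 and did not pass. No member passed in S list cells or in cells high in both, where 5.21% and 12.6% of genes did. The members' medians were 0.20 in low cells, 0.066 in S list cells, 0.053 in cells high in both and 0.11 in G2/M list cells, against 0.020, 0.016, 0.010 and 0.017 for all genes of each class. With cells thinned to 5000 molecules the median in S list cells was 0.12, and with only the outer cells of each list that in cells high in both was -0.027.

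The values of Rrm2 by class are given here, and other members were apart in other classes. In S list cells it was at 178 CPM (173 to 183) with vehicle and 185 CPM (180.1 to 189) with DFO, and these intervals overlap. In low cells it was at 59.2 CPM (55.1 to 63.4) and 68.8 CPM (63.8 to 74.1), and in G2/M list cells at 88.0 CPM (84.8 to 91.4) and 103 CPM (99.5 to 106), with intervals apart in both classes. Rrm2 was thus separated between libraries only in the low and G2/M list classes among the 4.

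Intervals of the libraries lay apart for 4 of 8 members in low cells, 4 in S list cells, 2 in cells high in both and 4 in G2/M list cells, where 12%, 18.4%, 9.11% and 22.5% of all genes did. Tyms and Dut were higher in DFO with intervals apart in all 4 classes. Tyms differed by 0.26 in low, 0.080 in S list, 0.12 in both-high and 0.15 in G2/M list cells, and Dut by 0.27, 0.13, 0.11 and 0.19. Tk1 was apart in S list (0.20) and G2/M list cells (0.25), and Dck in low (0.37) and S list cells (0.23). Rrm1, Rrm2b and Samhd1 overlapped in every class, Rrm1 with differences from -0.082 to 0.094. In cells high in both, Rrm1, Rrm2b and Samhd1 were the 3 members below 0. That a difference was larger in 1 class than in another was not tested.

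**Figure D4:**
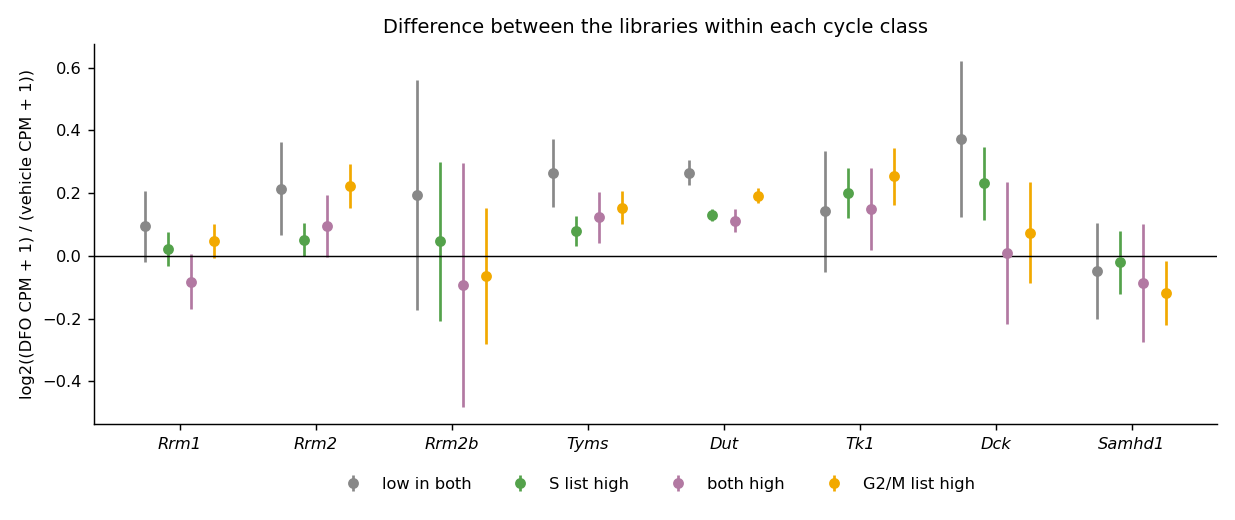
Log2 difference of each gene between the DFO and vehicle libraries within 4 cycle classes (colours), with counting half-widths of the log2 ratio. Dut and Tyms lie above 0 in all 4 classes, Rrm2b and Samhd1 have bars that cross or come near 0, and Dck is the highest point, 0.37 in cells low in both.

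The smaller share of low cells in the DFO library accompanied these differences, so the classes were also given equal weight in both libraries. Such weights even out the class shares, not the list sums within a class. The differences then were 0.12 for Rrm2, 0.13 for Tyms, 0.16 for Dut, 0.20 for Tk1 and 0.17 for Dck. Those of Rrm1 and Rrm2b were 0.022 and 0.0031, and Samhd1 was at -0.067. The members' median was 0.12. Without this weighting, the same cells thinned to 10000 molecules gave a median of 0.18, with Rrm2 at 0.18, Tk1 at 0.26 and Rrm2b at -0.0054. Rrm2b was the only member whose direction differed.

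Cells with many megakaryocyte marker molecules (over 28 of the 11 markers together) were 14.9% of vehicle cells and 5.28% of DFO cells. In the other cells, 7111 of vehicle and 8922 of DFO, the differences were 0.16 for Rrm2, 0.14 for Tyms, 0.19 for Dut, 0.22 for Tk1 and 0.15 for Dck. Rrm1 was at 0.055, Rrm2b at -0.0013 and Samhd1 at -0.11 there. Within the marker-rich cells Tk1 was at 46.8 CPM (43.1 to 50.7) with vehicle and 59.2 CPM (52.6 to 66.3) with DFO. Dck was at 18.8 CPM (16.5 to 21.3) and 26.6 CPM (22.2 to 31.5). These were the largest differences there, 0.33 and 0.48. Rrm2 differed by 0.21, Tyms by 0.19, Dut by 0.21, Rrm1 by 0.086, Rrm2b by -0.15 and Samhd1 by -0.23. The median S list sum was 33 in vehicle and 38 in DFO, and its part was not tested. The share of all genes with such differences was not counted.

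Marker-rich cells of other lineages did not all go the same way. In cells rich in neutrophil-monocyte markers (over 6 molecules of 9 markers, 648 vehicle and 561 DFO cells), Dck was at 25.5 CPM (21.7 to 29.7) with vehicle and lower, at 20.7 CPM (17.1 to 24.8), with DFO, and these intervals overlap. In cells rich in erythroid markers (over 21 molecules of 9 markers, 896 and 814 cells), Rrm2b was at 8.37 CPM (6.58 to 10.5) and 11.4 CPM (9.22 to 14.0). Samhd1 was at 56.3 and 56.9 CPM there, with overlapping intervals for both genes. Rrm2, Tyms, Dut and Tk1 were higher with DFO in both of these cell ranges. Within 1 molecule of the neutrophil-monocyte cut lay 1161 vehicle and 1102 DFO cells, more than the range held, so its membership is uncertain. For the erythroid cut these numbers were 255 and 313. The median S list sum was 36 in vehicle and 39 in DFO in the neutrophil-monocyte range, and 35 and 39 in the erythroid range. The part of these unequal sums was not tested.

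Cells richest in HSC markers (over 10 molecules of the 14 markers) numbered 676 in vehicle and 931 in DFO, and 629 and 805 cells lay within 1 molecule of this cut. The median S list sum among the richest cells was 32.5 in vehicle and 37 in DFO, and the median G2/M list sum 56 and 68. Rrm2 was at 83.6 CPM (76.8 to 90.8) with vehicle and 106 CPM (99.6 to 113) with DFO, and Tyms at 137 CPM (129 to 146) and 175 CPM (167 to 184). Samhd1 was at 72.3 CPM (66.1 to 79.0) and 59.2 CPM (54.3 to 64.3). These 3 genes had intervals apart, with log2 differences of 0.34, 0.35 and -0.29, as did Dut, at 726 and 871 CPM (0.26). For these cells the share of all genes with intervals apart, or with differences this large, was not counted. Whether the members stand out from other genes there was thus not tested. The part of the unequal cycle sums in these differences was not tested.

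Across the 17776 thinned cells of both libraries, the log-scale levels of the members were set against the list sums by Pearson correlation, as a description over cells that share 2 libraries and 1 depth. Dut (0.53) had the second highest correlation with the S list sum among 8886 genes, which include those of the list itself. Rrm2 (0.38) was at rank 16. Tyms (0.26), Tk1 (0.22), Rrm1 (0.16) and Dck (0.16) followed, and Rrm2b (-0.039) and Samhd1 (-0.037) were near 0. With the G2/M list sum, Rrm1 had the highest value of the 8 (0.14) and Dut the lowest (-0.13). Counts this sparse keep such values low, and the weak ones are no finding.

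The 3 genes most like each member by this measure were then listed. Pclaf, a PCNA-binding factor, was closest to Rrm2 (0.26) and to Tk1 (0.22), and the histone H1 gene Hist1h1b was closest to Rrm1 (0.18) and Tyms (0.29). Rrm2 was next to Dut (0.26) and Hsp90aa1 (0.23), Rrm1 to Top2a (0.16) and Pclaf (0.15), Tyms to Pclaf (0.28) and Dut (0.22), and Tk1 to Hist1h1b (0.22) and Dut (0.17). Dut was closest to Hsp90aa1 (0.38), Ranbp1 (0.36) and Tipin (0.34). Dck was closest to Ung (0.10), Mcm6 (0.087) and Hells (0.086), Samhd1 to Ypel3 (0.072), Hlf (0.069) and Capg (0.062), and Rrm2b to Cenpe, Aspm and Odf2 (0.033 each). Between the members, Rrm1 and Rrm2 correlated at 0.12 and Rrm2 and Dut at 0.26.

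Other genes of nucleotide metabolism gave the following counts across all cells, to be read against the 57.9% of all tested genes that were higher in DFO and their median of 0.019. Of 5 genes of pyrimidine synthesis, 4 were higher in DFO, with a median of 0.14, from Cad (0.19), the enzyme of the first steps, and Dhodh (0.14) to Ctps (0.13) and Ctps2 (-0.023). Of 8 genes of the folate and thymidylate cycle, 7 were higher, with a median of 0.14. Dctd, which makes dUMP from dCMP, was at 48.6 CPM with vehicle and 59.1 CPM with DFO (0.28), and Mthfd2, of mitochondrial folate metabolism, at 59.2 and 70.9 CPM (0.26). Mthfd1l (0.089) and Mthfd2l (-0.033) were the lowest. Dctd and Mthfd2 were the 2 of 8 past 0.25, where 1.4% of all tested genes were higher by as much.

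Of 13 genes of purine synthesis, 12 were higher, with a median of 0.058, between Gart (0.19) and Atic (0.15) at the high end and Paics (0.024) and Adssl1 (-0.18) at the low end. Of 18 salvage and kinase genes, 15 were higher, with a median of 0.098. The nucleoside transporter Slc29a1 was at 32.4 CPM with vehicle and 41.5 CPM with DFO (0.35), and Nme4 differed by 0.20. Slc25a36 (-0.053) and Uckl1 (-0.13) were the lowest, and the mitochondrial kinases Tk2 and Dguok, which do for mitochondria what Tk1 and Dck do in the cytosol, differed by 0.052 and 0.028. Slc29a1 was the 1 of 18 past 0.25, a share near the 3.97% of all tested genes.

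Of 14 genes of nucleotide breakdown, 7 were higher and 7 lower, with a median of 0.034. Pnp2 (0.29), a near copy of Pnp (0.16), was highest. Nt5e, the surface enzyme CD73 that makes adenosine, was at 10.4 CPM with vehicle and 4.08 CPM with DFO (-1.17), and Upp1 differed by -0.18. Pnp2 and Nt5e were the 2 of 14 past 0.25, in opposite directions, against 3.97% of all tested genes.

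Genes that supply the reductase with its cofactor and reducing power had a median of 0.052, with 6 of 10 higher, near the share of all genes, and none past 0.25. Gsr, glutathione reductase, differed by 0.22 and Ciapin1, of iron-sulfur cluster assembly, by 0.17, while Txnrd2 (-0.076) and Glrx2 (-0.080) were lowest. Of 17 regulators of the reductase genes, 12 were higher, with a median of 0.041, and none past 0.25, from Chek1 (0.17) and Tfdp1 (0.12) to Rb1 (-0.17) and E2f8 (-0.20). E2f1 was at 33.9 CPM with vehicle and 36.2 CPM with DFO (0.089). Ccnf (0.023) and Fzr1 (-0.11), which direct the Rrm2 protein to degradation, and Trp53 (0.10) were also within 0.25.

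Rrm2b is a p53 target, and 10 targets of p53 had a median of 0.0078 with 5 higher and 5 lower. Cdkn1a was at 48.8 CPM with vehicle and 50.6 CPM with DFO (0.051), Bax (0.081) and Aen (0.068) were highest, and Bbc3 (-0.18) and Btg2 (-0.64) lowest. Among cells with more than 10 molecules of the 20 listed targets, Rrm2b was at 11.0 CPM (8.39 to 14.3) with vehicle and 8.71 CPM (6.58 to 11.3) with DFO. Among cells with 3 or fewer it was at 9.72 CPM (8.25 to 11.4) and 10.2 CPM (8.65 to 11.9). All these intervals overlap.

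The cycle lists themselves had medians of 0.061 for the 40 S phase genes, 30 of them higher, from Hells (0.24) to Blm (-0.16) and E2f8 (-0.20). The 54 G2/M genes had a median of 0.0042, 28 of them higher, from Hmgb2 (0.22) and Kif23 (0.18) to Jpt1 (-0.17) and Ckap2l (-0.51). Pcna was at 88.9 CPM with vehicle and 94.0 CPM with DFO (0.080), and Mki67 at 303 and 285 CPM (-0.083). Tfrc, the transferrin receptor, which iron lack is known to raise, was at 57.8 and 67.7 CPM (0.23), close in size to Tk1.

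**Figure D5:**
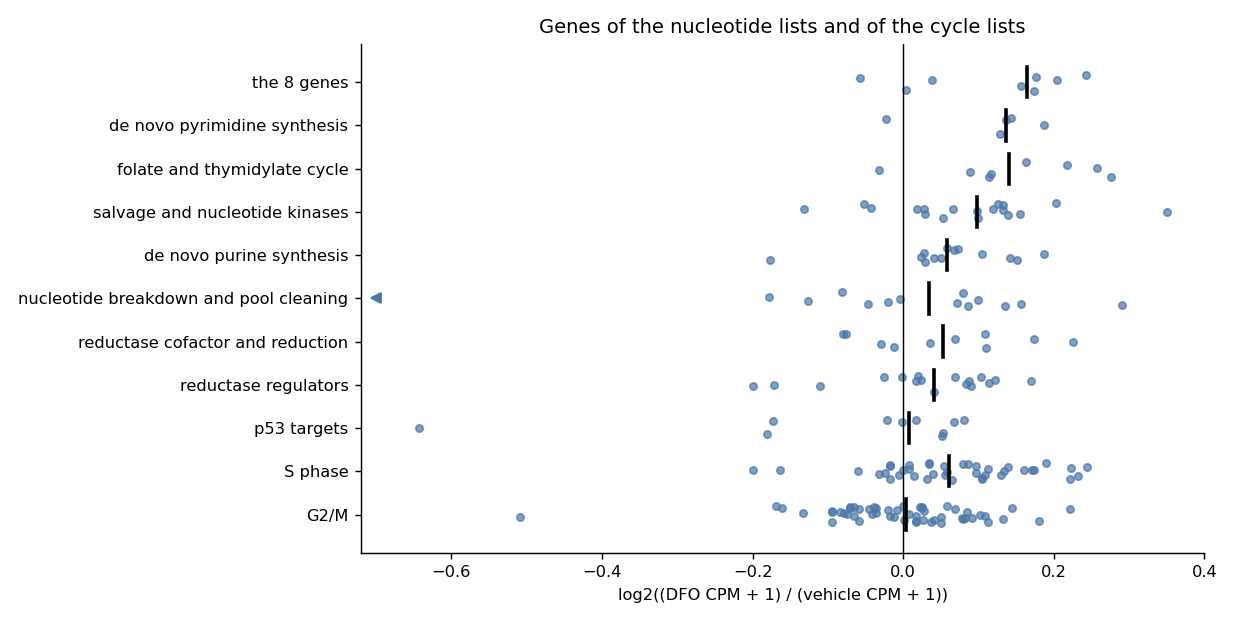
Log2 difference between the DFO and vehicle libraries (horizontal axis) for single genes (points) of the lists on nucleotide metabolism, the reductase, p53 and the cycle, with the median of each list as a bar and vertical scatter for legibility. The 8 genes have the highest median, 0.16, the G2/M list is centred near 0 (0.0042), and the arrowhead is Nt5e at -1.17, beyond the axis.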

How the data were processed

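For each library the authors deposited a table of genes by cells in natural log units; the unit follows from the values, not from a header. Back-transformed, each cell's values were whole multiples of 1 step: a value is ln(1 + 27408 × share), with the share being the gene's part of its cell's molecules, and all nonzero values gave whole molecules within 0.05. FastQC 0.11.9, Trim Galore 0.6.5, Cell Ranger 3.0.2 and the build mm10 are listed in the submitters' processing notes, with no role given; the sources used here give neither the cell filter nor the strand setting. Groups came from the sample labels.

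Molecules were summed over cells per library and scaled to CPM, with a pseudocount of 1 CPM and a minimum mean of 5 CPM, in Python 3.11.15 (scanpy 1.11.5, scipy 1.17.1, numpy 2.4.6, matplotlib 3.10.9). Per-cell comparisons used cells thinned to 10000 molecules. All deposited cells were used; no doublet caller was run, and likely doublets (cells with transcripts of both sexes, and the 5% with most molecules) were left out as an alternative, 6.26% of vehicle and 6.62% of DFO cells. The steps were checked on simulated data. Named were the 8 genes, 11 fixed genes, the 2 top and 2 bottom genes by difference in each list described and the 3 genes most correlated with each of the 8; 2 genes under this rule are not reported here. Procr, Hlf and the genes with near copies are named outside that rule and were chosen after their values were seen. The members, lists and tests were chosen with earlier results of these data known. Other pseudocounts, minimums, scalings, cell subsets and cycle cuts were tried, 3 of them added after seeing the data: leaving out shared barcodes, cells of 20000 molecules or more, and the class medians without likely doublets. At 2414 molecules or more per gene and library, counting error is small, and variation between cultures is not measured.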

Additional observations from a re-analysis of the deposited data

How the results depend on the processing

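No paired analysis was possible because each group has 1 library. Over 14 alternatives the differences between libraries kept their direction for 7 members, from 0.018 to 0.059 for Rrm1, 0.11 to 0.20 for Rrm2, 0.13 to 0.19 for Tyms, 0.16 to 0.19 for Dut, 0.20 to 0.26 for Tk1, 0.15 to 0.23 for Dck and -0.090 to -0.041 for Samhd1. Rrm2b kept its sign in 12 of 14. The number of members past 0.25 was 0, and 1 (Tk1) with cells thinned to 10000 molecules and 1 (Tk1) in female cells. At these 2 settings 4.34% and 4.51% of all tested genes were past 0.25. All genes past 0.25 numbered 353 (3.97%), against 148 (1.67%) with a pseudocount of 10 CPM, 631 (4.39%) with no minimum and 155 (2.82%) at 20 CPM or more. Scaling by the median of ratios moved the median of all genes from 0.019 to about 0. Members doubled in S list cells numbered 2 in each library. In vehicle they were 5 when only cells beyond the upper or lower cut of each list were used, 5 with scanpy phase calls and 1 with a pseudocount of 10 CPM. In DFO they were 4 with those outer cells, 1 with cells thinned to 5000 molecules and 1 with a pseudocount of 10 CPM. The share of all genes doubled under these alternatives was not counted, and the cause of these shifts was not tested. The members' median in cells high in both lists was -0.027 with the outer cells, of which there were 94 in vehicle and 133 in DFO; that in S list cells was 0.12 with cells thinned to 5000 molecules, against 0.066, and the medians of the other 3 classes kept their sign. Depth limits Rrm2b most, the least abundant of the 8.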

Other observations

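The pool held mice of both sexes, and cells could be told apart by Xist and 4 Y-linked genes, which gives a split of each culture by mice. There were 4751 female and 2767 male cells in vehicle and 5251 and 3266 in DFO. Rrm2 differed between the libraries by 0.20 in female and 0.11 in male cells, Tyms by 0.19 and 0.16, Dut by 0.18 and 0.17, Tk1 by 0.26 and 0.22 and Dck by 0.23 and 0.20. Rrm1 differed by 0.039 and 0.036 and Samhd1 by -0.043 and -0.077. The directions of these 7 genes were the same in cells of both sexes, which shared their culture and library and so are no replicates.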
